A study of Arabidopsis thaliana with 9 samples.

Results

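A group of 127 Arabidopsis thaliana probe sets, standing for 126 genes, read lower in cold-treated WS seedlings than in cold-treated Col-0 seedlings, and each of these genes carries no name in the probe annotation beyond its locus code. They were chosen by their values. A probe set had to match a single gene with a locus code as its only symbol, to average at least 6 on the log2 scale in Col-0 at 4 °C, to average lower by at least 1 in WS at 4 °C, and to read lower on both WS arrays than on all 5 Col-0 arrays at 4 °C. One locus that otherwise qualified by name, AT4G14090, was kept out by the rule. Of 4858 locus-code probe sets at or above that level, 127 met the rule (2.61%), out of 22746 probe sets tested in all.

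The arrays held RNA of whole wild-type seedlings, 10 days old, grown in constant light at 22 °C on Gamborg's medium without sucrose. WS and Col-0 are accessions, which are natural inbred lines, and the labels give the ecotype of the WS arrays as WS2. The groups were WS moved to 4 °C for 24 h (2 arrays), Col-0 moved to 4 °C for 24 h (5 arrays, of which 2 carried the name set 4), and Col-0 moved to a new chamber at 22 °C without cold (2 arrays). A WS group at 22 °C was not analysed here, so the response of WS to cold was not tested. Nothing in the labels states that the replicates were separate cultures. The p-values therefore cover only the spread between these arrays, which may be technical.

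The array, Affymetrix ATH1, reads each gene with a set of short probes that were designed from the Col-0 sequence. Accessions of Arabidopsis differ in sequence and in gene content. Genes for pathogen recognition and defence, among them receptor kinases and the nucleotide-binding leucine-rich-repeat (NBS-LRR) proteins that sense pathogen effectors inside the cell, are known to be among the most variable between accessions. A lower signal in WS can come from less transcript, from a transcript whose sequence pairs less well with the probes, or from a missing gene, and these cannot be told apart in these values. In RNA of whole seedlings, fewer cells of a type and less RNA per cell cannot be told apart either.

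All values below are log2 signals, so a difference of 1 is a factor of 2. The difference between WS and Col-0 at 4 °C chose the probe sets and is given as a description, with no test. Its median was -1.26 and its range ran from -5.80 to -1.001. It was -4 or lower in 6 probe sets, -3 or lower in 12, and -2 or lower in 29, while in 78 it was smaller than 1.5 in size. The distance between the highest WS array and the lowest Col-0 array at 4 °C had a median of 0.83, was over 1 in 51 probe sets, and was under 0.2 in 7. Most of the group therefore consists of modest differences, with a short list of very large ones at its head.

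**Figure D1:**
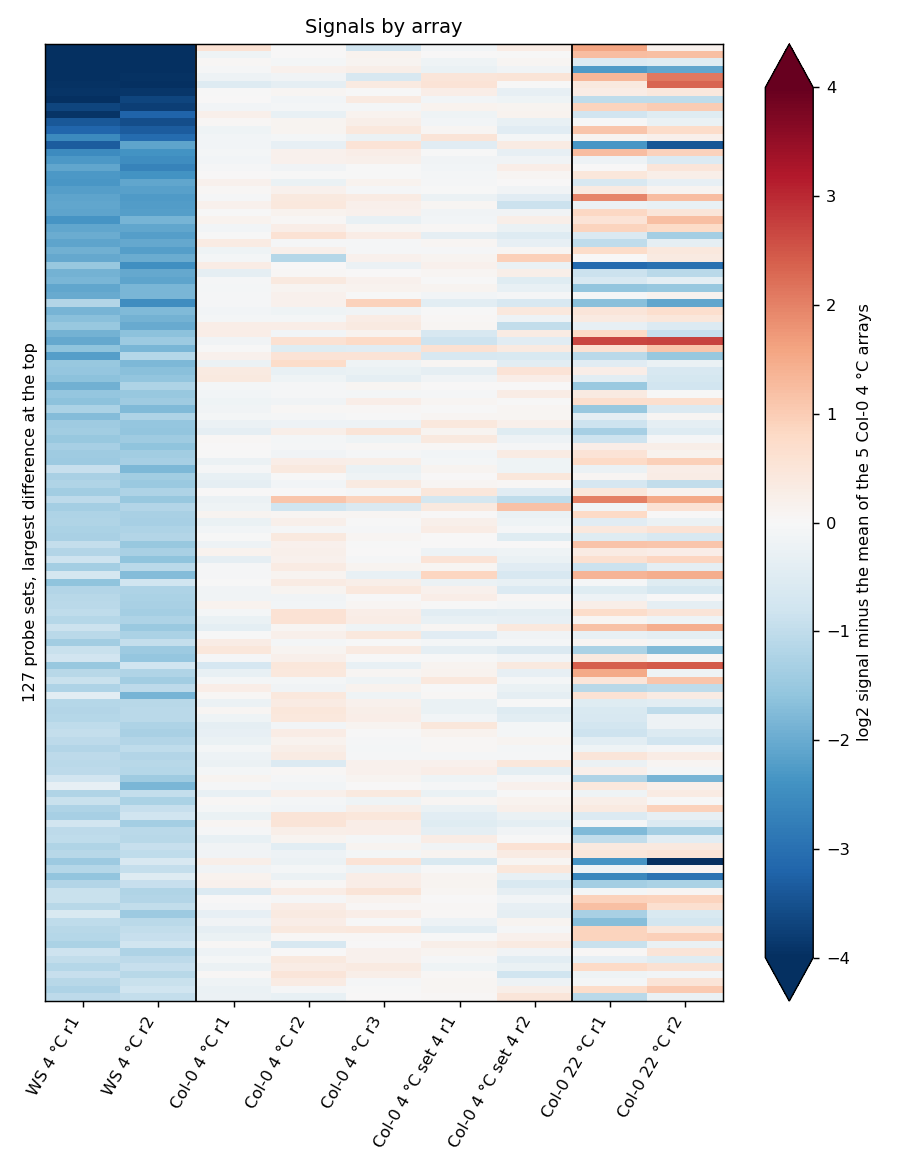
Signals of the 127 probe sets (rows, the largest difference at the top) on the 9 arrays (columns; r is the replicate number), as log2 signal minus the mean of the 5 Col-0 arrays at 4 °C; colours stop at 4 in either direction. The 2 WS columns are blue by construction, and in the 22 °C columns both arrays read above both WS arrays in 110 of the 127 rows.

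The 2 WS arrays read alike in most of the group. The median size of their difference was 0.22, it was over 1 in 7 probe sets, and it reached 1.501 at most, with replicate 1 the lower of the pair in 57 of 127. The median SD was 0.16 in WS at 4 °C (n = 2), 0.25 in Col-0 at 4 °C (n = 5) and 0.21 in Col-0 at 22 °C (n = 2). Taken over the 127 probe sets, the array medians were 5.72 and 5.78 in WS at 4 °C, 7.34 to 7.54 in Col-0 at 4 °C, and 7.46 and 7.33 in Col-0 at 22 °C. In 7 probe sets the WS mean lay under 3.88, the lower quartile of all values on all arrays. No detection call was used, and signals this low were not shown to be above background. For these 7 probe sets the differences are those of the measured signals, with no fold given, and the distance between the transcripts may be larger.

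The roles given here were added after the values were seen. The largest difference belonged to AT1G66100, which encodes a thionin, a small cysteine-rich peptide of a family with antimicrobial members. It read 3.41 and 3.71 in WS at 4 °C, against 9.93, 9.37, 8.60, 9.25 and 9.65 in Col-0 at 4 °C (replicates 1 to 3, then set 4 replicates 1 and 2, the order used throughout) and 10.93 and 9.55 in Col-0 at 22 °C. This bright transcript of Col-0 was thus close to the bottom of the scale in WS, with a difference in signal of -5.80 from cold Col-0, and no array of either Col-0 group came near the WS arrays.

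AT5G03350 encodes a protein with a legume lectin domain, a fold that binds sugars. Its signal was 4.04 and 4.59 in WS at 4 °C, 8.35, 8.40, 7.90, 9.03 and 9.06 in Col-0 at 4 °C, and 9.87 and 10.64 in Col-0 at 22 °C. The 3 groups did not overlap, and warm Col-0 was the highest. WS stood 18.8-fold below cold Col-0.

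AT1G11280 is an S-domain receptor kinase, one of a large family of membrane kinases whose outer part resembles the self-incompatibility receptor of Brassica. It read 4.08 and 4.38 in WS at 4 °C, 8.08, 7.96, 8.41, 7.95 and 7.87 in Col-0 at 4 °C, and 7.02 and 7.05 in Col-0 at 22 °C. Here too the groups stood apart, with cold Col-0 the highest and WS 14.2-fold below it.

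Of the 12 largest differences, 2 belonged to NBS-LRR genes with a Toll/interleukin-1 receptor (TIR) domain. The share of such genes among the 4858 locus-code probe sets was not counted, so these 2 cannot be read as an excess. AT1G63880 read 4.45 and 4.31 in WS at 4 °C, 7.89, 7.96, 8.08, 7.74 and 7.55 in Col-0 at 4 °C, and 7.82 and 7.59 in Col-0 at 22 °C. AT3G44630 read 3.62 and 3.45 in WS at 4 °C, 6.60, 6.90, 7.22, 6.88 and 6.35 in Col-0 at 4 °C, and 7.91 and 7.53 in Col-0 at 22 °C. In AT1G63880 the Col-0 groups overlapped, while in AT3G44630 both warm arrays read above all cold ones, and in both genes every WS array was far below every Col-0 array.

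A pair of TIR-NBS-LRR genes further down the list, AT4G19500 and AT4G19530, lie close together on chromosome 4. AT4G19500 had 4.11 and 4.26 in WS at 4 °C, 6.56, 6.82, 6.91, 6.62 and 6.31 in Col-0 at 4 °C, and 7.88 and 7.58 in Col-0 at 22 °C. For AT4G19530 the signals were 4.67 and 4.52 in WS at 4 °C, 6.74, 7.17, 7.09, 6.55 and 6.33 in Col-0 at 4 °C, and 8.73 and 8.005 in Col-0 at 22 °C. Both genes showed the same order of groups without overlap, from WS at the bottom to warm Col-0 at the top.

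Genes with other roles shared the head of the list, where AT3G47250, AT1G73490 and AT2G40010 ranked 2, 3 and 4 by size of difference. AT2G40010 encodes a P0 protein of the ribosomal stalk, the side arm of the large subunit that recruits translation factors. It read 3.29 and 3.66 in WS at 4 °C, 7.75, 7.98, 8.05, 7.53 and 7.67 in Col-0 at 4 °C, and 5.55 and 5.71 in Col-0 at 22 °C. The 3 groups were separate, with a difference in signal of -4.32 between WS and Col-0 at 4 °C and warm Col-0 between them.

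AT1G73490 encodes a protein with an RNA recognition motif. It had 4.83 and 4.17 in WS at 4 °C, 9.03, 8.91, 9.08, 8.81 and 9.04 in Col-0 at 4 °C, and 8.43 and 8.48 in Col-0 at 22 °C. All 7 Col-0 arrays stayed within a narrow band, and WS was 22.3-fold below cold Col-0.

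AT3G47250 belongs to the DUF247 family, plant proteins defined by a domain of unknown function. Its signals were 3.34 and 3.11 in WS at 4 °C, 8.07, 8.24, 8.38, 8.23 and 8.22 in Col-0 at 4 °C, and 9.46 and 9.45 in Col-0 at 22 °C. The groups did not overlap, and the signal differed by -5.0045 between WS and Col-0 at 4 °C.

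For 4 of the 12 genes no role is given here. AT1G76960 read 3.46 and 3.21 in WS at 4 °C, 6.89, 7.06, 7.77, 7.96 and 7.40 in Col-0 at 4 °C, and 7.81 and 9.74 in Col-0 at 22 °C, where its 2 arrays lay far apart. AT1G23960 read 3.84 and 3.75 in WS at 4 °C, 7.41, 7.43, 7.43, 7.64 and 7.62 in Col-0 at 4 °C, and 8.40 and 8.51 in Col-0 at 22 °C. In each of the 2 genes the WS arrays lay well under the lowest Col-0 array.

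AT4G20480 read 4.63 and 5.35 in WS at 4 °C, 8.75, 8.25, 8.70, 8.38 and 8.69 in Col-0 at 4 °C, and 7.80 and 8.07 in Col-0 at 22 °C. AT3G43740 had 3.54 and 3.56 in WS at 4 °C, 7.44, 7.53, 7.45, 7.73 and 7.12 in Col-0 at 4 °C, and 7.74 and 7.87 in Col-0 at 22 °C. The differences of these 4 genes between WS and Col-0 at 4 °C ran from -4.08 in AT1G76960 to -3.57 in AT4G20480.

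**Figure D2:**
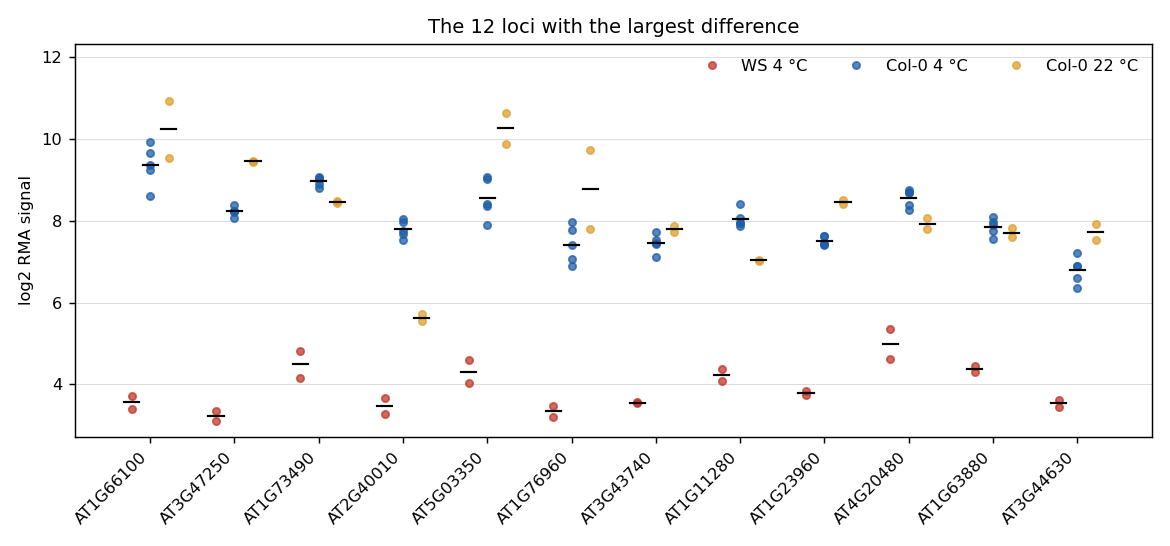
Log2 RMA signal (vertical axis) of the 12 loci with the largest difference, for WS at 4 °C, Col-0 at 4 °C and Col-0 at 22 °C; each point is an array and each bar the group mean. In all 12 loci both WS arrays lie below all 7 Col-0 arrays, while the warm Col-0 arrays lie above, within or below the cold Col-0 arrays depending on the locus.

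The Col-0 arrays at 22 °C, which the rule did not use, place the WS signals beside a second set of Col-0 arrays. Both 22 °C arrays read above both WS arrays in 110 of 127 probe sets, 1 of the 2 did in 8, and neither did in 9. The same held for 33.6% of the 4858 locus-code probe sets from which the group was drawn, and for 27.8% of all probe sets. In limma's fit across all probe sets, 86 of the 127 were lower in WS at 4 °C than in Col-0 at 22 °C (adjusted p under 0.05 and at least a factor of 2; 7.37% of all probe sets and 9.43% of the 4858 were called in this direction). Of the 127, 3 were higher (6.82% of all, and 585 of the 4858). The WS arrays in this contrast are those that chose the group, and accession and temperature differ together in it, so the 86 calls are no independent support.

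All of the 12 largest differences were among the 86, with both 22 °C arrays above both WS arrays in each. For AT1G66100 the difference between WS at 4 °C and Col-0 at 22 °C was -6.68 (SE 0.48, limma adjusted p = 2.73e-05), and for AT3G47250 it was -6.23 (SE 0.14, limma adjusted p = 6.02e-08). Among the 29 probe sets with a difference of -2 or lower between WS and Col-0 at 4 °C, 27 were called lower than in warm Col-0 as well.

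Most of the group was not called between cold and warm Col-0. The mean at 22 °C lay above the mean at 4 °C in 62 probe sets, between the WS and the Col-0 mean at 4 °C in 55, and below the WS mean in 10. Between Col-0 at 4 °C and Col-0 at 22 °C, limma called 17 of 127 higher in the cold, against 5.87% of all probe sets and 11.5% of the 4858 locus-code probe sets of sufficient level. It called 10 lower, against 6.09% of all probe sets and 7.37% of those 4858. Both shares of the group lie near those of the 4858 from which it was drawn. The other 100 did not pass, and in 57 of the 127 the difference was under 0.5 in size. The median difference was 0.01 over the group and 0.03 over all probe sets. The Col-0 arrays at 4 °C in this contrast had also served the rule, which asked for a high level on them. Both 22 °C arrays lay above all Col-0 arrays at 4 °C in 37 probe sets (19.2% of all probe sets did so) and below all of them in 34 (20.5% of all). The shares of the 4858 were not counted here, so the 37 and 34 cannot be read as an excess over the probe sets from which the group was drawn.

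The loci that rose most in cold Col-0 are of several kinds. AT5G62210, of a family of embryo-specific proteins, read 9.05 and 9.85 in WS at 4 °C, 10.73, 10.27, 11.04, 9.89 and 10.57 in Col-0 at 4 °C, and 8.15 and 6.50 in Col-0 at 22 °C. It rose 9.02-fold between Col-0 at 4 °C and at 22 °C (log2 difference 3.17, SE 0.44, limma adjusted p = 0.000651). Cold WS also stood above warm Col-0, by 2.12 (SE 0.53, limma adjusted p = 0.015). That call was lost without 22 °C replicate 2 (1.30, limma adjusted p = 0.0856) or without WS replicate 2 (1.72, limma adjusted p = 0.107). Leaving out 1 of 2 arrays leaves a single array in that group, which limma then assumes to vary like the other groups, here and wherever an array of WS or of Col-0 at 22 °C is left out.

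AT2G16990 encodes a transporter of the major facilitator superfamily. Its signals were 7.06 and 6.13 in WS at 4 °C, 8.89, 8.61, 8.35, 8.74 and 8.31 in Col-0 at 4 °C, and 5.48 and 5.58 in Col-0 at 22 °C. The gene rose 8.29-fold in cold Col-0 against warm Col-0 (3.05, SE 0.24, limma adjusted p = 3.12e-05). The WS arrays lay between the Col-0 groups, 1.06 above warm Col-0 (SE 0.29, limma adjusted p = 0.0232), a call lost without either 22 °C array (1.01, adjusted p = 0.105 without replicate 1, and 1.12, adjusted p = 0.068 without replicate 2) or without WS replicate 1 (0.60, adjusted p = 0.141). Without 22 °C replicate 2, 1 rather than 3 probe sets of the group were called higher in cold WS than in warm Col-0.

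AT4G12490 and AT4G12500, next to each other on chromosome 4, encode proteins of the lipid transfer family, to which the cold-responsive EARLI1 also belongs. AT4G12490 read 6.50 and 7.74 in WS at 4 °C, 9.74, 9.50, 10.39, 9.39 and 10.17 in Col-0 at 4 °C, and 7.52 and 6.42 in Col-0 at 22 °C. AT4G12500 read 6.63 and 7.70 in WS at 4 °C, 8.36, 7.99, 8.47, 8.33 and 7.93 in Col-0 at 4 °C, and 5.63 and 5.26 in Col-0 at 22 °C. Both rose in cold against warm Col-0, AT4G12490 by 2.87 (SE 0.41, limma adjusted p = 0.000753) and AT4G12500 by 2.77 (SE 0.27, limma adjusted p = 9.27e-05). The WS arrays of AT4G12490 overlapped with those of warm Col-0 (difference 0.15, SE 0.49, limma adjusted p = 0.866), while AT4G12500 was 1.73 higher in cold WS than in warm Col-0 (SE 0.32, limma adjusted p = 0.00389). Genes this similar may share probes, which was not tested. All 127 probe sets of the group carry the suffix of the array design for probes that are specific to a single gene. So do 99.6% of the 4858 locus-code probe sets of sufficient level, so the suffix does not set the group apart.

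AT3G28220, a TRAF-like protein, read 8.12 and 6.81 in WS at 4 °C, 9.25, 9.46, 10.20, 8.85 and 8.65 in Col-0 at 4 °C, and 7.61 and 7.20 in Col-0 at 22 °C. Its rise of 1.88 in cold against warm Col-0 (SE 0.44, limma adjusted p = 0.0103) was not called without 22 °C replicate 2 (1.68, adjusted p = 0.0846). The stalk protein gene AT2G40010, described above, rose 4.50-fold in cold Col-0 (2.17, SE 0.17, limma adjusted p = 2.55e-05), yet cold WS lay 2.15 below warm Col-0 (SE 0.20, limma adjusted p = 8.85e-05). AT1G11280 rose by 1.02 (SE 0.16, limma adjusted p = 0.00113), at the fold minimum, and by 0.93 without Col-0 4 °C replicate 3, which ended the call. Of the 17 loci that rose in cold Col-0, 3 were called higher in cold WS than in warm Col-0, 2 were called lower, and 12 were called in neither direction.

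Among the loci that fell in cold Col-0 was AT5G61590, listed with the synonym DEWAX, a transcription factor known to repress wax synthesis genes. It read 5.59 and 6.31 in WS at 4 °C, 6.42, 7.55, 6.81, 7.23 and 7.50 in Col-0 at 4 °C, and 9.48 and 9.55 in Col-0 at 22 °C. It fell 5.34-fold in cold against warm Col-0 (-2.42, SE 0.31, limma adjusted p = 0.000439), and the higher WS array came within a short distance of the lowest cold Col-0 array.

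The largest fall belonged to AT1G22890, which had 4.06 and 4.68 in WS at 4 °C, 5.996, 6.74, 6.92, 5.31 and 5.67 in Col-0 at 4 °C, and 8.79 and 8.83 in Col-0 at 22 °C. It was 6.41-fold lower in cold than in warm Col-0 (-2.68, SE 0.41, limma adjusted p = 0.00105). AT1G68600, of the malate transporter family, read 6.72 and 5.71 in WS at 4 °C, 7.39, 7.55, 7.14, 8.28 and 6.80 in Col-0 at 4 °C, and 8.80 and 8.89 in Col-0 at 22 °C. The groups of both genes were separate, although the fall of AT1G68600 (-1.41, SE 0.37, limma adjusted p = 0.019) was not called without either 22 °C array (-1.46, adjusted p = 0.0943 without replicate 1, and -1.36, adjusted p = 0.103 without replicate 2).

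AT5G53880 read 6.86 and 6.40 in WS at 4 °C, 7.67, 9.03, 8.80, 7.20 and 6.89 in Col-0 at 4 °C, and 9.94 and 9.44 in Col-0 at 22 °C. Its cold Col-0 arrays were widely spread, the lowest of them 0.03 above the higher WS array, which is the smallest distance in the group. The fall in cold Col-0 (-1.77, SE 0.55, limma adjusted p = 0.0378) did not pass without 22 °C replicate 1 (-1.52, adjusted p = 0.226) or replicate 2 (-2.02, adjusted p = 0.0972). Nor did it pass without Col-0 4 °C replicate 1 (-1.71, limma adjusted p = 0.0752) or set 4 replicate 1 (-1.59, adjusted p = 0.0684), or, at the same difference of -1.77, without either WS array (limma adjusted p = 0.0546 each).

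The TIR-NBS-LRR neighbours both fell in cold Col-0, AT4G19530 by 1.59 (SE 0.26, limma adjusted p = 0.00153) and the difference of AT4G19500 was -1.09 (SE 0.17, limma adjusted p = 0.00115); without 22 °C replicate 1 that of AT4G19500 was -0.93, under the fold minimum. AT5G03350 fell by 1.71 (SE 0.34, limma adjusted p = 0.00459), a call lost without 22 °C replicate 2 (-1.32, adjusted p = 0.0592), and AT3G47250 fell by 1.22 (SE 0.11, limma adjusted p = 7.27e-05). The other large TIR-NBS-LRR differences had no call, with AT3G44630 at -0.93 (SE 0.22, limma adjusted p = 0.0101) under the fold minimum and AT1G63880 at 0.14 (SE 0.15, limma adjusted p = 0.583). All 10 loci that fell in cold Col-0 were called lower still in cold WS against warm Col-0. That direction was fixed beforehand, since the rule had placed WS at least 1 below cold Col-0. The call of AT5G53880 in this contrast was lost without 22 °C replicate 1 (-2.82) or WS replicate 2 (-2.83).

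**Figure D3:**
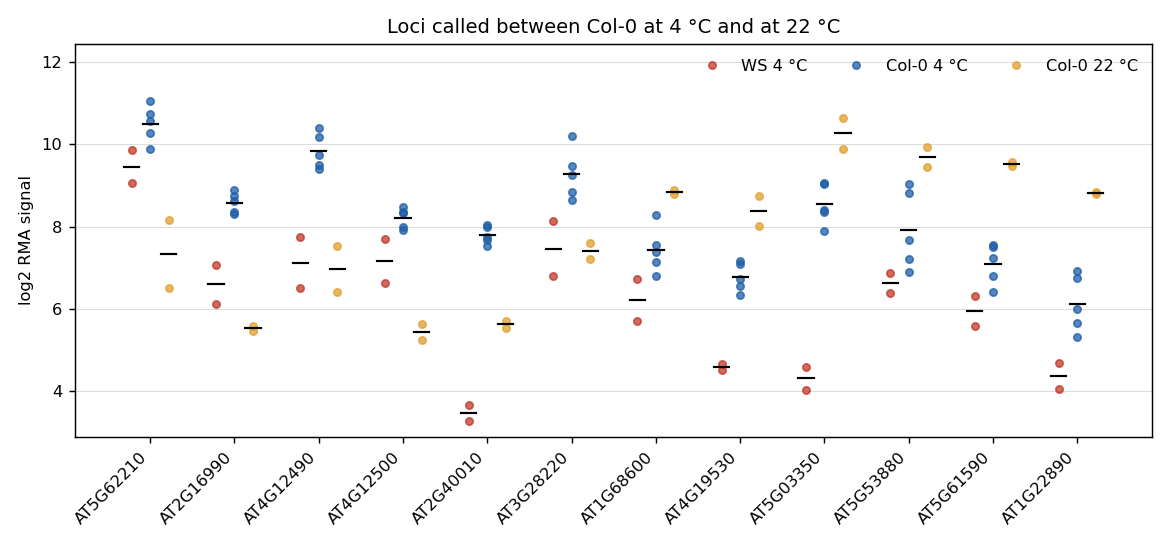
Log2 RMA signal (vertical axis) of the 6 loci with the highest and the 6 with the lowest called difference between Col-0 at 4 °C and at 22 °C; each point is an array and each bar the group mean. In AT2G40010 the WS arrays lie below both Col-0 groups, in AT2G16990 and AT4G12500 between them, and in AT5G03350 and AT1G22890 cold WS, cold Col-0 and warm Col-0 stand in rising order.

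The remaining loci with a known family, picked out here after their values were seen, show how mixed the group is. The DEAD-box RNA helicases AT3G58510 and AT2G42520, which unwind RNA, averaged 8.39 ± 0.16 and 7.21 ± 0.13 in WS at 4 °C (SD, n = 2) and 9.44 ± 0.35 and 8.35 ± 0.21 in Col-0 at 4 °C (SD, n = 5). Both rose in cold against warm Col-0, AT3G58510 by 1.31 (limma adjusted p = 0.00165) and AT2G42520 by 1.07 (limma adjusted p = 0.00071). Both WS arrays of AT3G58510 read above the 22 °C arrays, but the difference was not called (0.27, SE 0.26, limma adjusted p = 0.505). The amino acid transporter AT2G39130, the subtilase AT5G59130 (a secreted protease) and the thaumatin-like AT1G20030 also rose in cold Col-0, by 1.57, 1.54 and 1.51 (limma adjusted p = 0.000247, 0.000508 and 0.00457); the call for AT1G20030 was lost without 22 °C replicate 2 (1.26, adjusted p = 0.0546). The other amino acid transporter, subtilase and thaumatin-like genes of the group were not called. AT5G02180 differed by 0.96 (limma adjusted p = 0.0442) and AT3G14240 by -0.91 (limma adjusted p = 0.00571), both under the fold minimum, and AT5G24620 by 0.08 (limma adjusted p = 0.726).

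A few loci with roles in the cell wall, the cuticle and protein folding were picked out in the same way, after their values were seen. The pectate lyase AT1G67750, an enzyme that cuts pectin, averaged 6.18 ± 0.44 in WS at 4 °C (SD, n = 2), 7.36 ± 0.30 in Col-0 at 4 °C (SD, n = 5) and 8.66 ± 0.19 in Col-0 at 22 °C (SD, n = 2), a fall of 1.31 in cold Col-0 (limma adjusted p = 0.00227). Its relative AT1G04680 differed by -0.39 (limma adjusted p = 0.0723) and the polygalacturonase AT5G14650 by -0.87 (limma adjusted p = 0.0587), neither called. AT4G13840, with the synonym ECERIFERUM 26, acts in elongating the fatty acids of cuticular wax and averaged 7.24 ± 0.55 in WS at 4 °C (SD, n = 2) and 8.47 ± 0.36 in Col-0 at 4 °C (SD, n = 5). Its difference between cold and warm Col-0 was -0.75 (limma adjusted p = 0.067), which did not pass. The cyclophilin AT2G36130, a prolyl isomerase, was among the tightest, at 5.24 ± 0.06 in WS at 4 °C (SD, n = 2) and 7.60 ± 0.06 in Col-0 at 4 °C (SD, n = 5).

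Relatives of the leading genes were measured to see whether their families shared the pattern, with lists drawn from textbook knowledge. The rule had covered the locus-code relatives too, and in each list the leading gene alone met it. Between WS and Col-0 at 4 °C, limma called 1.28% of all probe sets lower and 0.857% higher. Of 3 other thionin genes, THI2.2 was lower and the other 2 were not called, but both averaged under 3.88 in Col-0 at 4 °C, where a drop could hardly be read. THI2.2 read 7.56 and 7.07 in WS at 4 °C, against 8.97, 8.97, 8.47, 8.84 and 8.69 in Col-0 at 4 °C, a difference of -1.47 (SE 0.19, limma adjusted p = 0.00327), and it rose by 1.37 in cold against warm Col-0 (limma adjusted p = 0.000733). Its 2 WS arrays lay below all 5 cold Col-0 arrays. Without WS replicate 2 the difference of THI2.2 was -1.23 and was not called (limma adjusted p = 0.0501).

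The 11 other stalk P protein genes are all locus codes that reached the rule's level, so the lack of lower calls was partly set beforehand. None of them was lower (0 at an unadjusted p under 0.05 in limma's fit) and AT3G28500 was higher. That gene read 7.50 and 7.50 in WS at 4 °C, against 5.74, 5.80, 6.31, 6.38 and 6.17 in Col-0 at 4 °C (difference 1.42, SE 0.21, limma adjusted p = 0.00621), the opposite direction to AT2G40010. The median difference of the 11 was -0.09, and none of them was called by limma between cold and warm Col-0 (7 were higher at an unadjusted p under 0.05). Of 17 other S-domain receptor kinases, AT1G61370 was higher in WS (1.24, SE 0.22, limma adjusted p = 0.016), and no other was called. Of these 17, 10 averaged under 3.88 in Col-0 at 4 °C and 7 above it. Among the 7, AT1G61400 and AT1G61500 averaged only 3.95 and 4.02, where a drop could hardly be read either. AT1G11330 and AT1G11410 reached the rule's level and had already missed its other limits. Without WS replicate 2 the higher call was lost in AT3G28500 (1.42, limma adjusted p = 0.067) and in AT1G61370 (0.76, limma adjusted p = 0.0819). The 5 other legume lectin genes differed between WS and Col-0 at 4 °C by -0.13 to 0.32 and the 14 other DUF247 genes by -0.38 to 0.48, with no call in either list (at an unadjusted p under 0.05, 0 lectin genes, and 2 DUF247 genes that were lower). In Col-0 at 4 °C, 3 of these 5 lectin genes and 10 of these 14 DUF247 genes averaged under 3.88, and 0 of the 11 stalk P protein genes did. In the lectin list AT3G16530 fell by 3.56 in cold against warm Col-0 (SE 0.44).

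A second probe set gives a further measurement of the same gene, although the rule was applied to each probe set. Of the 126 genes, 9 have 2 single-gene probe sets. AT1G31690, a copper amine oxidase gene, met the rule with both, and its probe sets read 6.16 and 5.28 in WS at 4 °C, against 7.02, 7.44, 6.79, 7.17 and 6.91 in Col-0 at 4 °C on the one, and 7.37 and 5.95 in WS, against 7.83, 8.22, 7.63, 7.84 and 7.43 in Col-0, on the other. In this gene both probe sets show WS replicate 2 well below replicate 1.

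In the other 8 genes the second probe set showed no such difference. The probe sets chosen by the rule differed by -1.65 to -1.04 between WS and Col-0 at 4 °C, and the second ones by -0.37 to 0.13. None of the 8 second probe sets was called in limma's fit (adjusted p from 0.631 to 0.993, and 0 of 8 at an unadjusted p under 0.05). All 8 reached the rule's level in Col-0 at 4 °C and missed its other limits. The lack of lower calls among them is therefore partly set by the choice. The difference between the 2 probe sets of a gene was not tested, since the rule had picked one of them for being low in WS.

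The pairs look alike gene by gene. AT2G07360, a subunit of the TPLATE complex of endocytosis, read 5.30 and 5.38 in WS at 4 °C, against 6.88, 6.74, 6.64, 7.19 and 6.62 in Col-0 at 4 °C, on the chosen probe set. Its second probe set read 8.41 and 8.16 in WS at 4 °C, against 8.51, 8.45, 8.49, 8.55 and 8.12 in Col-0 at 4 °C (difference -0.14, SE 0.14, limma adjusted p = 0.686). The groups were apart by over 1 on the one and overlapped on the other.

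AT4G01290 read 5.04 and 4.82 in WS at 4 °C, against 5.70, 5.93, 6.14, 6.49 and 5.97 in Col-0 at 4 °C, on the chosen probe set. On the second it had 8.95 and 8.94 in WS, against 8.84, 8.73, 9.15, 8.93 and 8.45 in Col-0 (difference 0.13, SE 0.20, limma adjusted p = 0.814). Here the second probe set was slightly higher in WS, within the spread of the Col-0 arrays.

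For AT2G43160, an epsin-like protein of vesicle traffic, the chosen probe set differed by -1.22 and the second by -0.10 (SE 0.24, limma adjusted p = 0.889). AT1G60200, a splicing factor with a PWI domain, differed by -1.12 on the chosen and by -0.28 on the second (SE 0.26, limma adjusted p = 0.65), and AT1G01320 by -1.65 and -0.37 (SE 0.35, limma adjusted p = 0.639). AT4G16180 differed by -1.06 and -0.18 (SE 0.17, limma adjusted p = 0.631). In AT4G02480, an AAA-type ATPase, and AT5G35430 the values were -1.12 and -0.09 (SE 0.34, limma adjusted p = 0.933), and -1.04 and -0.01 (SE 0.16, limma adjusted p = 0.993). The RefSeq gene table lists AT4G02470 as a synonym of AT4G02480, and AT5G35440 as one of AT5G35430, so in these 2 genes the probe sets may have been designed for neighbouring gene models.

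The same pairs can be set side by side for cold and warm Col-0. The chosen probe set of AT5G35430 rose by 1.22 (SE 0.24, limma adjusted p = 0.00405), a call that ended without 22 °C replicate 1 (log2 difference 0.72), and the second one differed by 0.59 (SE 0.16, limma adjusted p = 0.0211), under the fold minimum. The chosen probe set of AT1G01320 differed by 0.36 (limma adjusted p = 0.387) and the second by -0.70 (limma adjusted p = 0.177), neither called.

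**Figure D4:**
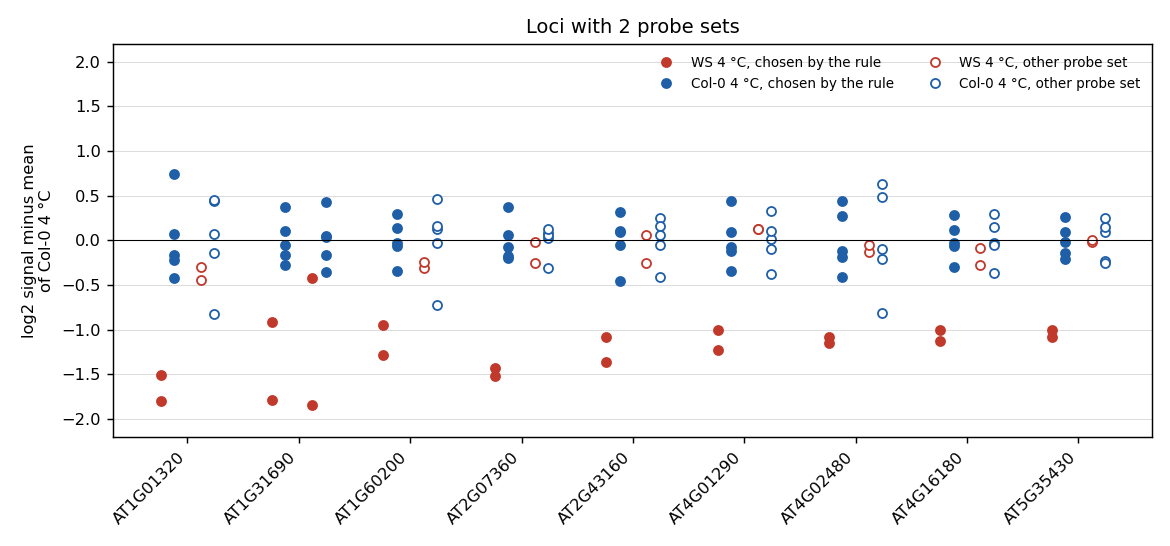
Log2 signal minus the mean of the 5 Col-0 arrays at 4 °C (vertical axis) for the 9 loci with 2 single-gene probe sets, with WS at 4 °C left of Col-0 at 4 °C; filled points are probe sets that met the rule and open points the other probe set, 1 point per array. In AT1G31690 both probe sets are filled; in the other 8 loci the open WS points lie among or close to the open Col-0 points.

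The group is spread over the genome. Chromosomes 1 to 5 hold 36, 23, 20, 21 and 27 of the probe sets, which is 2.81%, 3.27%, 2.04%, 3.03% and 2.26% of the locus-code probe sets of sufficient level on each. In 12 pairs, made of 24 members, 2 genes lie within 50 kb of each other in the RefSeq gene table for TAIR10.1. Pairs among other locus-code probe sets of sufficient level were not counted, so these 12 cannot be read as clustering. Besides the lipid transfer and TIR-NBS-LRR pairs, these include AT1G73490 with AT1G73530, both encoding RNA recognition motif proteins, and AT1G23890 with AT1G23960.

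In some of the 12 pairs the difference of one member was much larger than that of the other, and 2 such pairs are given here. AT1G73530 read 6.34 and 6.37 in WS at 4 °C, 7.79, 7.83, 7.81, 7.83 and 8.18 in Col-0 at 4 °C, and 8.25 and 7.87 in Col-0 at 22 °C. Its difference of -1.53 between WS and Col-0 at 4 °C stands beside -4.48 in AT1G73490. AT1G23890 read 4.94 and 5.23 in WS at 4 °C, 6.01, 5.73, 6.24, 6.003 and 6.74 in Col-0 at 4 °C, and 6.53 and 6.52 in Col-0 at 22 °C, a difference of -1.06 beside -3.71 in AT1G23960.

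AT2G21045, known as an arsenate reductase that limits arsenic accumulation, lies near AT2G21080. It read 5.66 and 5.71 in WS at 4 °C, 7.64, 6.55, 7.88, 7.81 and 8.65 in Col-0 at 4 °C, and 7.73 and 8.07 in Col-0 at 22 °C. AT2G21080 had 5.20 and 5.62 in WS at 4 °C, 6.87, 6.50, 6.56, 6.50 and 6.50 in Col-0 at 4 °C, and 6.66 and 6.50 in Col-0 at 22 °C. Neither was called between cold and warm Col-0.

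In AT3G28200, a peroxidase gene, the signals were 7.42 and 7.46 in WS at 4 °C, 8.33, 8.90, 8.73, 8.30 and 8.55 in Col-0 at 4 °C, and 8.07 and 8.15 in Col-0 at 22 °C. Its neighbour AT3G28220, the TRAF-like gene above, rose in cold Col-0, while AT3G28200 did not pass (0.45, SE 0.17, limma adjusted p = 0.0719). AT5G05750, near AT5G05640, differed by -2.38 between WS and Col-0 at 4 °C, and AT4G02540, near AT4G02480, by -2.08. Differences in the remaining 4 pairs (AT2G25950 with AT2G25980, AT4G13100 with AT4G13200, AT4G16140 with AT4G16180, and AT4G39900 with AT4G39955) lay between -1.49 and -1.02.

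The nearest single-gene probe sets on either side of the 5 largest differences, which are not always of the adjacent genes, had no call in the same direction. Of these 10 probe sets, none was called lower by limma in WS than in Col-0 at 4 °C (2 at an unadjusted p under 0.05), and AT2G39980, before AT2G40010, was higher (7.36 and 8.01 in WS at 4 °C, against 6.12, 5.99, 6.72, 6.59 and 6.82 in Col-0 at 4 °C; 1.24, SE 0.26, limma adjusted p = 0.028). The call of AT2G39980 did not hold without WS replicate 2 (0.91, adjusted p = 0.234), Col-0 4 °C replicate 1 (1.16, adjusted p = 0.0566) or set 4 replicate 1 (1.27, limma adjusted p = 0.051). AT1G73480, the nearest such gene before AT1G73490, was bright in both accessions, at 9.43 ± 0.04 in WS at 4 °C (SD, n = 2) and 9.64 ± 0.24 in Col-0 at 4 °C (SD, n = 5), a difference of -0.21 (SE 0.16, limma adjusted p = 0.531). It rose by 3.28 in cold against warm Col-0 (SE 0.16, limma adjusted p = 4.45e-06). AT2G40020, on the other side of AT2G40010, fell by 1.88 in cold Col-0 (SE 0.19, limma adjusted p = 0.000106) and differed by -0.13 between the accessions (limma adjusted p = 0.782). AT1G66110, AT3G47240, AT3G47260, AT1G73510 and AT5G03360 averaged under 4 in both groups, where a drop could hardly be read. AT1G66090 and AT2G40020 were little brighter, with averages of 4.15 and 4.45 in Col-0 at 4 °C. AT1G73480, AT2G39980 and AT5G03320 reached the rule's level of 6 there and had already missed its other limits. The lack of lower calls among the neighbours is therefore partly set by the choice.

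Members close to the limits of the rule have values much like those left out. AT1G52360, a coatomer subunit gene, AT1G49650, AT2G02400 and AT5G05640 were just inside, at -1.014, -1.007, -1.003 and -1.001. AT4G30990, AT1G23830, AT2G01990 and AT4G27640 were just outside, at -0.996, -0.993, -0.992 and -0.989. By level, AT4G01290 and AT2G28660 were just inside at a Col-0 mean of 6.05 and 6.07, and AT1G68585 and AT1G12400 just outside at 5.97 and 5.98. The level alone kept out 37 probe sets, and an overlap between arrays kept out 1.

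The limits of the rule were also met by named genes, and in the other direction. Of 904 probe sets with a gene name that reached the same level in Col-0 at 4 °C, 21 met the same limits (2.32%). The mirrored rule, with WS higher and a WS mean of at least 6, was met by 110 locus-code probe sets. The median gene length of the group was 2338 bases, against 2362 over the 4858 locus-code probe sets of sufficient level.

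Array medians over all probe sets lay between 5.81 and 6.06. The marker of green tissue LHCB4.2, a light-harvesting protein, read 9.34 to 9.96 in WS at 4 °C, 10.23 to 11.03 in Col-0 at 4 °C and 11.96 to 12.93 in Col-0 at 22 °C. The root marker PYK10 read 11.20 to 12.21 on all 9 arrays, and EXPA7, a root hair gene, 4.69 to 6.35. The level of the green marker thus moved with both accession and temperature, and its part in the differences above was not tested. Between the set 4 arrays and the other Col-0 arrays at 4 °C, limma called 0 of the 127 probe sets and 1 of all 22746. The differences of the 127 ran from -1.45 to 1.30, and 26 of them passed an unadjusted p under 0.05 in limma's fit. The share of all probe sets passing that unadjusted limit was not counted, so the 26 cannot be read as particular to the group.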

How the data were processed

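Total RNA of 9 seedling samples was hybridised to Affymetrix ATH1 arrays. The deposited table holds a log2 signal for each probe set on each array, made by RMA with the R package affy per the submitters' processing notes, whose versions are not given in the sources used here. RMA scales all arrays to a common distribution and uses the perfect-match probes alone, so a mismatch between WS transcripts and Col-0 probes is not corrected. Of 22810 probe sets, 64 controls were left out. Names came from the platform's probe table (13513 probe sets with 1 gene, 503 with several, 8730 with none) and RefSeq's table for TAIR10.1.

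Group means were fitted to all 9 arrays with limma 3.58.1 in R 4.3.3 (lmFit, eBayes), and p-values adjusted by Benjamini-Hochberg over 22746 probe sets. Calls needed a factor of 2 or more besides an adjusted p under 0.05. The fit was tested on simulated data. Named in the text were the 12 largest differences, up to 6 called loci at each end of the cold contrast, the 4 on each side of the difference limit, loci within 50 kb of another, neighbours of the top 5, loci with 2 probe sets, and 5 family lists; others are said to be chosen later. The members and lists were chosen with earlier results of these data known. Alternatives were each array left out, the set 4 arrays left out or as a term, a replicate block, a dim filter, a trended robust eBayes, median subtraction, no fold minimum, and other limits of the rule. The number of arrays limits the precision. Sequences were not used here.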

Additional observations from a re-analysis of the deposited data

Results flagged for a closer look

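In 2 of 51 probe sets checked, 1 of the 5 Col-0 arrays at 4 °C stood far from the other 4, with a gap over Dixon's 95% limit for a group of 5; chance gives about 1 in 20. In AT1G73530, set 4 replicate 2 read 8.18 in Col-0 at 4 °C while the others read 7.79 to 7.83, a gap of 0.896 of the range. In AT2G21080, replicate 1 read 6.87 in Col-0 at 4 °C while the others read 6.50 to 6.56, a gap of 0.831 of the range.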

How the results depend on the processing

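With no fold minimum, 29 members were higher and 29 lower in cold than in warm Col-0 (14.0% and 14.5% of all probe sets). Shares of the locus-code probe sets of sufficient level were not counted for this setting, so no excess can be read from it. Leaving out each array in turn gave 15 to 20 higher and 9 to 12 lower in cold against warm Col-0, and 1 to 3 higher (1 without 22 °C replicate 2) and 71 to 88 lower in cold WS against warm Col-0. The rule found 49 probe sets at a minimum difference of 1.5 and 83 at a minimum level of 7. It found 113 to 160 with an array left out, of which 107 to 126 were among the 127, and 146 without the set 4 arrays (115 shared). Of the named loci's values under the alternatives, 1977 kept their side of the limits, 64 lost a call and 22 gained one, and no called difference turned direction; the cause was not tested. In cold against warm Col-0, AT1G66100 gained a call without 22 °C replicate 2 (-1.57) and was at -0.19 without replicate 1. AT1G76960 gained one without 22 °C replicate 1 (-2.32), with the dim filter (limma adjusted p = 0.0307), the trended robust eBayes (0.0392) and median subtraction (0.0326), and was at -0.39 without 22 °C replicate 2. The replicate block gave 15 higher and 11 lower in cold against warm Col-0, and 3 higher and 84 lower in cold WS against warm Col-0; it ended the calls of AT1G11280 (0.93), AT4G16563, AT4G39955 and AT2G39980. Correlations of deviations between arrays of the same number ran from -0.329 to 0.291. In a group of 2 arrays the deviations mirror each other, so these values cannot tell whether the numbers pair the samples. The count of promoter motifs, and its alternative, were not run, as no sequence was used here. Dim signals limit what can be read in WS.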
